A study of Mus musculus with 6 samples.

Results

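The vessel lining of the liver was followed through 10 marker genes, Clec4g, Stab1, Stab2, Lyve1, Oit3, Fcgr2b, Kdr, Pecam1, Mmrn2 and Vwf,, in liver RNA of mice carrying an Nfkbiz vector or a luciferase vector. The members were the probe sets that the platform annotation assigns to one of these symbols alone, 19 of the 45037 probe sets in the table, for 10 of 18193 genes with a probe set of their own. An Affymetrix probe set is a group of short probes read together as 1 value for a transcript. Of the 19 probe sets, 17 were bright enough to be tested, and every one of the 10 genes had at least 1 among them.

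Liver sinusoids are lined by a specialised endothelium that is open to the blood through fenestrae and lacks a continuous basement membrane. Its cells clear macromolecules from the circulation with scavenger and Fc receptors such as stabilin-1, stabilin-2 and FcγRIIb, and carry the hyaluronan receptor LYVE-1 and the lectin LSECtin, the product of Clec4g. The endothelium of larger vessels is known instead for von Willebrand factor, and PECAM-1 and the VEGF receptor encoded by Kdr are shared by both. In chronic liver disease sinusoidal cells can lose their fenestrae and take on features of ordinary capillaries, a change called capillarisation.

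The AAV8-Nfkbiz group held 3 livers of C57BL/6 mice given an intravenous adeno-associated virus of serotype 8 that carried Nfkbiz, the gene of the nuclear IκB protein IκBζ. The AAV8-luciferase group held 3 livers of C57BL/6 mice given the same kind of vector with luciferase. At 4 weeks after the vector all 6 mice began the CDAHFD diet, a high-fat diet deficient in choline with defined amino acids. They were kept on it for 4 weeks and were perfused with buffered saline to remove blood before the liver was taken. Both groups are therefore fatty liver models, and no liver on normal chow is among these samples. AAV8 is a vector used to transduce hepatocytes, the mice keep their own Nfkbiz gene, and the sources used here name neither the vectors' promoter nor the age or sex of the mice. Each array is a separate sample in the labels, and p-values cover the spread among the 6 livers only.

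Values are MAS5 intensities, Affymetrix's linear probe set signal, and the arrays had been scaled to one target by the authors (trimmed means 495.2 to 496.3). The Nfkbiz probe set 1448728_a_at read 4424, 4073 and 2006 in the Nfkbiz livers and 221, 230 and 180 in the luciferase livers. That difference of 3.98 ± 0.27 on the log2 scale (SE, limma adjusted p = 0.000901) stood beside 0.30 ± 0.19 and -0.89 ± 0.54 on the gene's other probe sets (limma adjusted p = 0.603 and 0.594), and on 1448728_a_at all 3 Nfkbiz livers were far above the luciferase livers. Luciferase array 3 stood apart from the other 5 on the second principal component over all tested probe sets, at 76.2, where the Nfkbiz arrays lay between -22.8 and -8.47 and the other luciferase arrays at -18.7 and -14.3. That component held 23.92% of the variance. On the first component (26.23%) luciferase array 3 was at 1.31, and the ends were luciferase array 1 at -53.25 and Nfkbiz array 2 at 56.39. The mean correlation with the other arrays was 0.953 for luciferase array 3 and 0.955 to 0.958 for the rest. Results of the members are given with and without luciferase array 3.

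No endothelial marker passed the test between the groups, and the values of most moved with 1 luciferase liver. Without an estimate of cell numbers, a different number of endothelial cells and different RNA per cell cannot be told apart in whole liver. RNA quality and array quality were not tested as a source of these values. Of the 17 tested member probe sets, 0 passed limma's test after Benjamini-Hochberg adjustment over 27022 probe sets, where 0.0703% of all probe sets passed. At an unadjusted p below 0.05, 4 of the 17 were higher in the Nfkbiz livers (4.14% of all probe sets) and 1 was lower (6.47% of all). The 4 were of Mmrn2 (1456768_a_at), Clec4g (1427428_at) and Fcgr2b (1435477_s_at and 1455332_x_at). The Fcgr2b probe sets among them come from the same sequence entry and are not separate measurements. By the brightest probe set of each gene, 3 of 10 genes were higher (Mmrn2, Clec4g and Fcgr2b, against 5.03% of 13312 genes) and 1 was lower (Vwf, against 7.0%), and 0 passed after adjustment (0.225% of all genes). The median log2 difference of the 10 genes was 0.28, beside -0.02 over all genes. Without luciferase array 3 it was -0.08, beside -0.04 over all genes. A positive difference was found for 8 of the 10 genes (47.8% of all genes), and for 4 of the 10 (45.8% of all) without that array. There 0 of the 10 passed after adjustment (0.143% of all genes). At an unadjusted p below 0.05, Mmrn2 and Clec4g were then higher (6.34% of all genes) and Stab1 and Vwf lower (7.72% of all). Without luciferase array 2 the median of the 10 was 0.60.

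**Figure D1:**
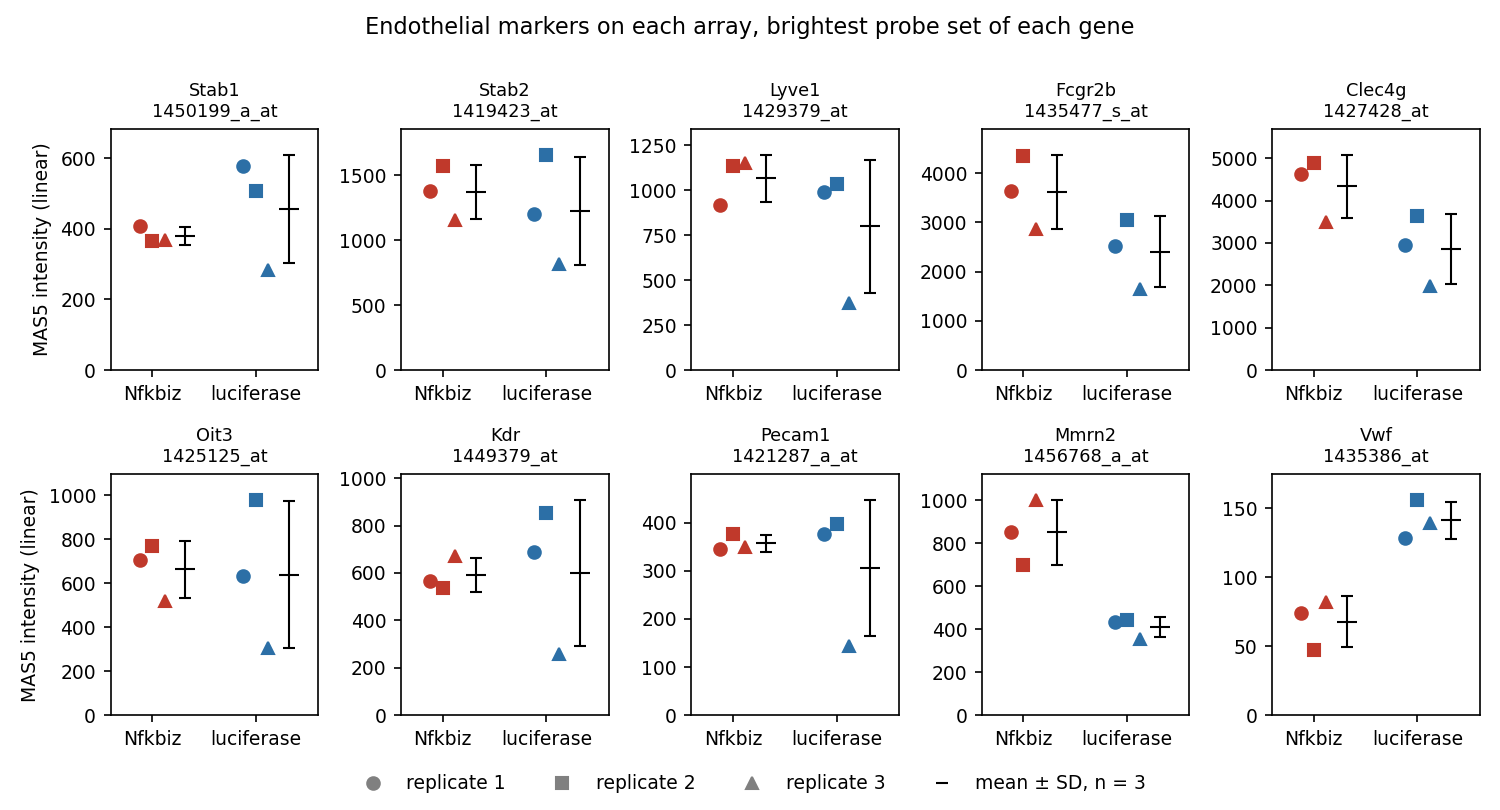
MAS5 intensity (vertical axis, linear, from 0) of the brightest probe set of each of the 10 genes on the 3 Nfkbiz and 3 luciferase arrays, with marker shape for the replicate and a bar for the mean ± SD (n = 3). The groups are apart for Mmrn2 and Vwf, and the triangle of luciferase array 3 is the lowest point in every panel except that of Vwf.

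The main pattern among these genes was low values in the third luciferase liver. On 16 of the 17 tested member probe sets luciferase array 3 held the lowest of the 6 values, while it held the lowest value for 23.4% of all tested probe sets. Nfkbiz array 2 held the lowest value for the remaining probe set, that of Vwf, and for 23.6% of all. Averaged over the 10 genes, the log2 deviation from the gene means was 0.15, 0.14 and 0.08 on the Nfkbiz arrays and 0.08, 0.30 and -0.74 on the luciferase arrays. The first and second luciferase livers thus lay in or above the range of the Nfkbiz livers, and the third lay far below all 5.

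**Figure D2:**
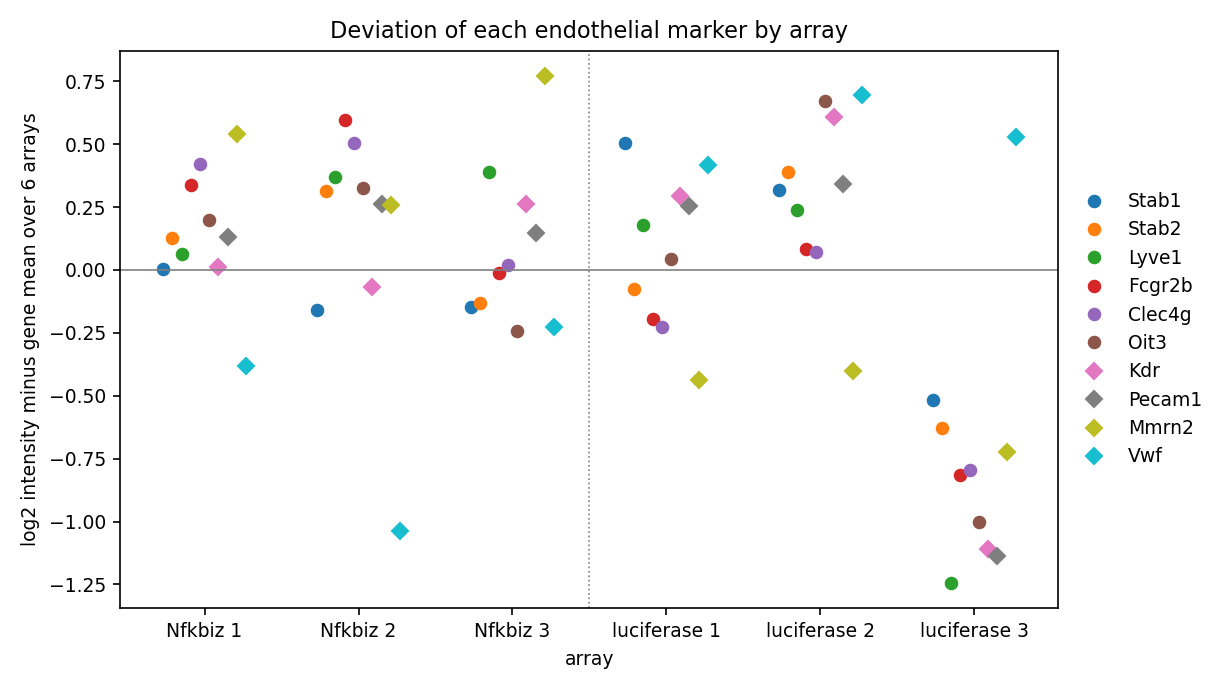
Log2 intensity minus the gene's mean over the 6 arrays (vertical axis) for the brightest probe set of each of the 10 genes, by array, with circles for the sinusoidal receptors, lectin and Oit3 and diamonds for Kdr, Pecam1, Mmrn2 and Vwf. On luciferase array 3 the points of 9 genes lie below 0 and that of Vwf above it.

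For the scavenger receptors, the stretches just before the annotated gene start are shown for Clec4g and Fcgr2b, the sinusoidal members with the smallest p-values, and for Stab1, the sinusoidal member with a negative difference. Each line is 150 bases, 5′ to 3′ on the gene's strand, from RefSeq's promoter table of the assembly GRCm38.p6, which matched 5 of the 10 genes. Capitals mark AGGAA on either strand (TTCCT on the other), a core of many binding sites of ETS factors, the family that includes the endothelial regulators ERG and FLI1. In Clec4g, 2 of the matches overlap.
Clec4g, chr8:3720696-3720845, minus strand: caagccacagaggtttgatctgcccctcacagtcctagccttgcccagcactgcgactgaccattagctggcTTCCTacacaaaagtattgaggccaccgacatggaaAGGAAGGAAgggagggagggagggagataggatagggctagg
Fcgr2b, chr1:170976072-170976221, minus strand: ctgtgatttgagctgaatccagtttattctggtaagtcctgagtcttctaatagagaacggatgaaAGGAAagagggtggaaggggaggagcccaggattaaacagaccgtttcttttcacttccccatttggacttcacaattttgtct
Stab1, chr14:31168652-31168801, minus strand: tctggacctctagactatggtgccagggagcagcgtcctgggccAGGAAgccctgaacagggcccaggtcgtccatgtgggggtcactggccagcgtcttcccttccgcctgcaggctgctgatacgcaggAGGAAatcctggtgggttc
These windows held AGGAA 3 times in Clec4g, 1 time in Fcgr2b and 2 times in Stab1. In windows of this length it was found for 42.1% of all promoters. In the 250 bases that the table gives before each start it was found for 4 of the 5 genes matched, all but Kdr, and for 60.3% of all 32851 promoters. The core of GATA factor sites, GATAA, searched on both strands, was found in 0 of the 5 and in 22.6% of all promoters.

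Stab1 and Stab2 encode the stabilins, large scavenger receptors that take up modified lipoproteins, hyaluronan and other ligands. Stab2 read 1381, 1573 and 1155 in the Nfkbiz livers and 1199, 1655 and 818 in the luciferase livers. The groups overlapped, and its log2 difference was 0.21 ± 0.24 (SE, limma adjusted p = 0.787) with all arrays and -0.05 ± 0.19 without luciferase array 3. Stab1 read 409, 364 and 368 in the Nfkbiz livers and 577, 508 and 285 in the luciferase livers. Its Nfkbiz values lay close together, above the third luciferase liver and below the other luciferase livers. The log2 difference was -0.20 ± 0.25 (limma adjusted p = 0.811), and without luciferase array 3 it was -0.51 ± 0.17 (unadjusted p = 0.0139, limma adjusted p = 0.242), with the groups no longer overlapping, as for 19.9% of all probe sets with the Nfkbiz arrays below in that smaller comparison. The paired receptors therefore differed in sign with all arrays, and neither passed.

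Lyve1 encodes the hyaluronan receptor shared by sinusoidal and lymphatic endothelium. Its brighter probe set, 1429379_at, read 916, 1132 and 1149 in the Nfkbiz livers and 990.3, 1034 and 370.2 in the luciferase livers. Apart from the third luciferase liver the 5 values overlapped, and the log2 difference was 0.55 ± 0.34 (limma adjusted p = 0.599) with all arrays and 0.07 ± 0.15 without it. The second probe set, 1453128_at, was designed from the same sequence entry and had a difference of 0.11 ± 0.25, or -0.18 ± 0.18 without that array. On 1453128_at the third luciferase liver, at 362, was again the lowest of the 6.

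Clec4g, the gene of the C-type lectin LSECtin, was among the members with the smallest p-values. It read 4624, 4891 and 3497 in the Nfkbiz livers and 2952, 3629 and 1991 in the luciferase livers. The third Nfkbiz liver lay just below the second luciferase liver, so the groups overlapped at 1 pair of values. Means were 4338 ± 740 in the Nfkbiz livers and 2857 ± 823 in the luciferase livers (SD, n = 3 each), a log2 difference of 0.63 ± 0.22 (SE, unadjusted p = 0.0155, limma adjusted p = 0.362). Without luciferase array 3 the difference was 0.39 ± 0.17 (unadjusted p = 0.0466, limma adjusted p = 0.357). A second Clec4g probe set, 1431575_at, was below the brightness filter, with 60.3, 18.5 and 77.6 in the Nfkbiz livers and 29.9, 25.6 and 10.4 in the luciferase livers, and was not tested.

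Fcgr2b, the inhibitory Fcγ receptor that removes immune complexes in the sinusoid and is also carried by B cells and macrophages, had 5 probe sets. The 4 tested ones had log2 differences of 0.62 ± 0.23 (1435477_s_at), 0.74 ± 0.40 (1451941_a_at), 0.48 ± 0.29 (1435476_a_at) and 0.74 ± 0.15 (1455332_x_at), all positive and none past the threshold. Probe sets 1435477_s_at, 1435476_a_at and 1455332_x_at come from one sequence entry, so they do not count as separate measurements of the gene. On 1455332_x_at the Nfkbiz livers read 1658, 1271 and 1529 and the luciferase livers 948, 904 and 812 (unadjusted p = 0.000628, limma adjusted p = 0.152). The groups did not overlap there, as for 7.03% of all probe sets with the Nfkbiz arrays above. In Affymetrix naming the ending _x_at marks a probe set with some probes shared by other transcripts. Matches of single probes to other transcripts were not tested for any probe set. The brightest, 1435477_s_at, read 3645, 4353 and 2860 in the Nfkbiz livers and 2520, 3056 and 1637 in the luciferase livers, with the third Nfkbiz value below the second luciferase value.

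These Fcgr2b probe sets gave different answers on luciferase array 3. Without it the difference was 0.67 ± 0.15 for 1455332_x_at, against 0.36 ± 0.18, 0.25 ± 0.29 and 0.12 ± 0.19 for 1435477_s_at, 1451941_a_at and 1435476_a_at. The fifth probe set, 1447622_at, was near the bottom of the scale, with 1.30, 0.72 and 12.9 in the Nfkbiz livers and 1.03, 52.6 and 5.68 in the luciferase livers, and was not tested.

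**Figure D3:**
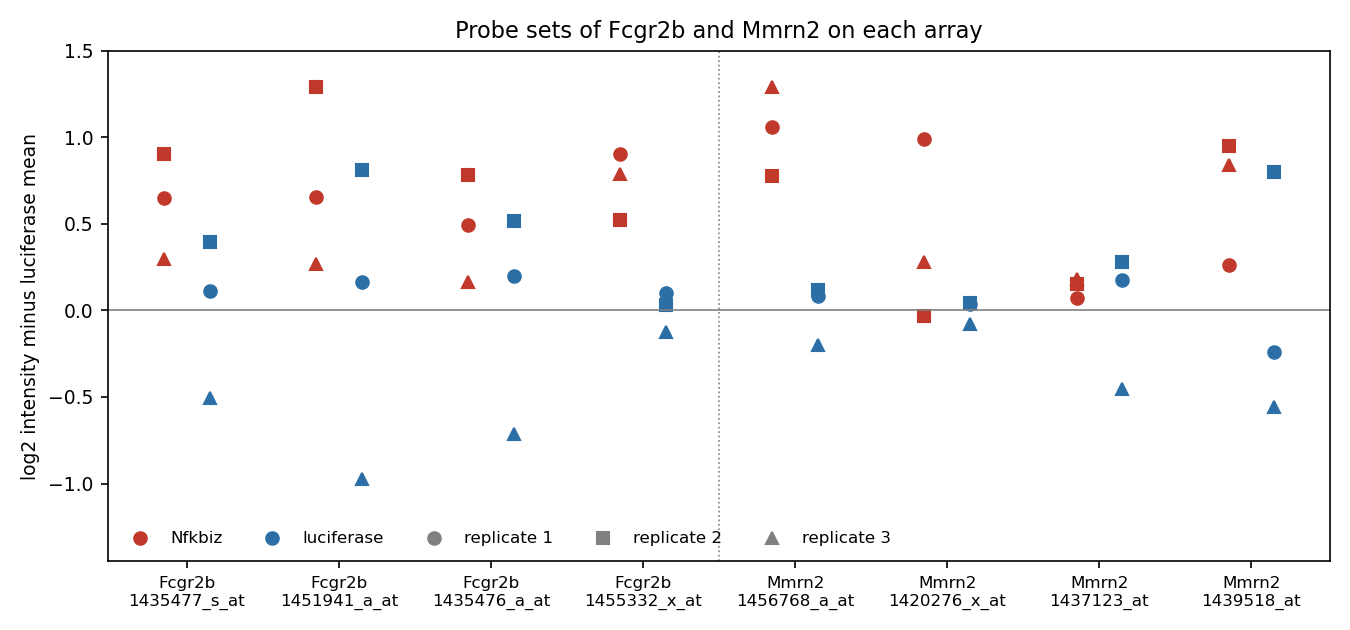
Log2 intensity minus the mean of the 3 luciferase arrays (vertical axis) for the 4 tested probe sets of Fcgr2b and the 4 of Mmrn2, by group and replicate. The groups are apart on 1 probe set of each gene, 1455332_x_at of Fcgr2b and 1456768_a_at of Mmrn2, and overlap on the others.

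Oit3, a zona pellucida domain gene listed among sinusoidal markers, read 703, 769 and 518 in the Nfkbiz livers and 632, 977 and 306 in the luciferase livers. The luciferase livers spanned the whole range of the Nfkbiz livers on both sides. Its log2 difference was 0.19 ± 0.36 (limma adjusted p = 0.88) with all arrays and -0.26 ± 0.23 without luciferase array 3.

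Kdr, the gene of the main VEGF receptor of endothelial cells, read 565, 535 and 672 in the Nfkbiz livers and 687, 854 and 259.8 in the luciferase livers. The third luciferase liver was the lowest and the other luciferase livers were the highest of the 6. The log2 difference was 0.14 ± 0.37 (limma adjusted p = 0.92), and -0.38 ± 0.17 without that array (unadjusted p = 0.0554, limma adjusted p = 0.376). Pecam1, the gene of the junctional adhesion molecule CD31, read 344, 377 and 348 in the Nfkbiz livers and 375.2, 398 and 143 in the luciferase livers. All 3 Nfkbiz livers lay within a narrow span near the first and second luciferase livers, and the log2 difference was 0.36 ± 0.35 (limma adjusted p = 0.744), or -0.12 ± 0.17 without luciferase array 3.

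**Figure D4:**
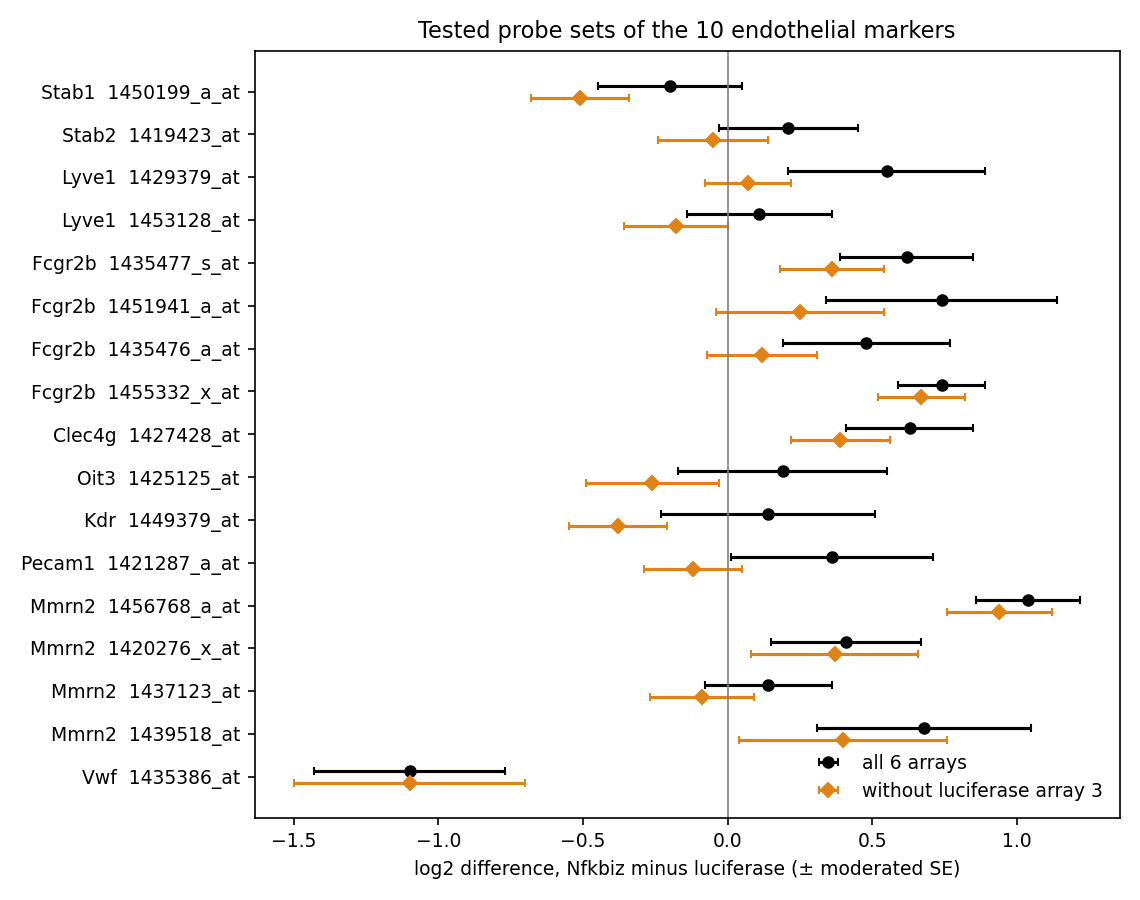
Log2 difference, Nfkbiz minus luciferase, ± moderated SE (horizontal axis) for the 17 tested probe sets of the 10 genes, with all 6 arrays (black circles) and without luciferase array 3 (orange diamonds). The differences of Stab2, 1 probe set each of Lyve1 and Mmrn2, Oit3, Kdr and Pecam1 are positive with all arrays and negative without that array, while Vwf stays at -1.10.

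Mmrn2 had the smallest p of the 10 genes. It encodes multimerin-2, a glycoprotein of the EMILIN family that endothelial cells deposit in their matrix. On 1456768_a_at, its brightest probe set, the Nfkbiz livers read 851, 700.1 and 999.8 and the luciferase livers 432, 443 and 355. The groups did not overlap, as for 7.03% of all probe sets with the Nfkbiz arrays above, and the lowest Nfkbiz value was above the highest luciferase value by a wide gap. Means were 850.4 ± 150 in the Nfkbiz livers and 410.03 ± 48.1 in the luciferase livers (SD, n = 3 each), a 2.06-fold difference (1.04 ± 0.18 on the log2 scale, unadjusted p = 0.000188). The limma adjusted p was 0.0844 over the probe sets and 0.0563 over the genes, so the threshold was missed in both. Over the genes it was passed under 6 of 16 alternative settings, with adjusted p-values from 0.0297 to 0.39 over all 16. Without luciferase array 3 the difference was 0.94 ± 0.18 (limma adjusted p = 0.0925 over the probe sets).

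The other Mmrn2 probe sets did not show a difference of that size. Probe set 1439518_at, designed from the same sequence entry as 1456768_a_at, read 146, 235 and 217 in the Nfkbiz livers and 103, 211 and 82.4 in the luciferase livers, a log2 difference of 0.68 ± 0.37 (limma adjusted p = 0.543). Probe set 1420276_x_at read 536, 264 and 328 in the Nfkbiz livers and 277, 278 and 256 in the luciferase livers, a difference of 0.41 ± 0.26 (limma adjusted p = 0.60) with the first Nfkbiz liver highest and the other 5 close together. Probe set 1437123_at read 297, 314 and 321 in the Nfkbiz livers and 319, 343 and 206 in the luciferase livers, with a difference of 0.14 ± 0.22 (limma adjusted p = 0.864). With the mean of all 4 probe sets for the gene the difference was 0.57 (limma adjusted p = 0.39). The stretch of transcript that each of the 4 probe sets targets was not used here.

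Vwf, the gene of von Willebrand factor of larger vessels and platelets, was the member with values on the other side. Its probe set 1435386_at read 73.9, 46.9 and 82.2 in the Nfkbiz livers and 128, 156 and 139 in the luciferase livers. The groups did not overlap, as for 9.69% of all probe sets with the Nfkbiz arrays below, and the third luciferase liver lay between the first and the second. Means were 67.7 ± 18.5 in the Nfkbiz livers and 141.001 ± 13.7 in the luciferase livers (SD, n = 3 each), a log2 difference of -1.10 ± 0.33 (unadjusted p = 0.00816, limma adjusted p = 0.307). Without luciferase array 3 it was -1.10 ± 0.40 (limma adjusted p = 0.272). These are dim values: the filter lay at an intensity of 47.4, above the second Nfkbiz liver, and no detection calls were used here. Markers of platelets and megakaryocytes, the other source of Vwf, had a median log2 difference of -0.02 over 6 genes. Of the 6, 0 were past an unadjusted p of 0.05, beside 5.03% of all genes higher and 7.0% lower. Summed over the 7 genes of the list on the array, Gp9 below the filter included, intensity was 1378 to 1699 in the Nfkbiz livers and 1487 to 1685 in the luciferase livers. The integrin genes Itgb3 and Itga2b differed by -0.27 ± 0.31 and -0.13 ± 0.17 and the platelet chemokine gene Ppbp by 0.25 ± 0.39, with -0.50, -0.07 and 0.39 without luciferase array 3.

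Other endothelial genes were read from further lists. Of 85 tested genes outside the 10 members, from lists of sinusoidal and pan-endothelial markers, VEGF and angiopoietin signalling, angiocrine and zonated genes, basement membrane and adhesion, 0 passed limma's test over all genes. At an unadjusted p below 0.05, 7 were higher and 0 were lower, beside 5.03% and 7.0% of all genes, and the median log2 difference was 0.03. Among the 7 were Clec1b, Fcna, Mrc1 and Msr1, and the part of macrophages in their values was not tested. Without luciferase array 3, 5 were higher and 9 lower, beside 6.34% and 7.72% of all genes, and the median was -0.12. On that array 49 of the 85 had their lowest value, 57.6%, beside 21.1% of all genes.

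Among 13 other sinusoidal markers, 3 were higher at an unadjusted p below 0.05 (5.03% of all genes) and the median difference was 0.20. Leaving out luciferase array 3 gave a median of 0.10, with 2 higher (6.34% of all genes) and 1 lower (7.72% of all), the endocytic gene Ehd3 (-0.64). Clec1b, a C-type lectin-like receptor, read 1827, 1857 and 1853 in the Nfkbiz livers and 1064, 1465 and 739 in the luciferase livers. The groups did not overlap, as for 1065 of 13312 genes with the Nfkbiz arrays above. The log2 difference of Clec1b was 0.82 ± 0.21 (limma adjusted p = 0.187), or 0.56 without luciferase array 3. Fcna, the ficolin-A gene (0.94 ± 0.27, limma adjusted p = 0.219), and Mrc1, the gene of the mannose receptor (0.49 ± 0.20, limma adjusted p = 0.369), had overlapping groups, and both are also expressed by macrophages. Their differences were 0.87 and 0.25 without luciferase array 3. The part of macrophages in the values of Clec1b, Fcna and Mrc1 was not tested. Cd209b was below the filter.

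Among 30 other pan-endothelial markers the median difference was 0.05. At an unadjusted p below 0.05, 2 were higher and 0 lower, beside 5.03% and 7.0% of all genes. The median was -0.10 without luciferase array 3, with 2 higher and 3 lower, beside 6.34% and 7.72% of all genes. Icam2, an endothelial adhesion molecule, read 268.4, 322.4 and 239.7 in the Nfkbiz livers and 210.9, 162.5 and 101 in the luciferase livers, a difference of 0.86 ± 0.29 (limma adjusted p = 0.277), or 0.57 without luciferase array 3. Fli1, an ETS transcription factor, had a difference of 0.45 ± 0.17 and Egfl7, a secreted vascular protein, of 0.55 ± 0.25, with limma adjusted p-values of 0.328 and 0.428. These were 0.51 and 0.33 without luciferase array 3, and with the mean of all probe sets of the gene 0.26 and 0.16. On luciferase array 3, 21 of these 30 genes had their lowest value, and the mean log2 deviation there was -0.48, beside 0.02 to 0.10 on the Nfkbiz arrays and 0.12 and 0.14 on the other luciferase arrays. That array was thus low for endothelial genes outside the 10 members too.

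In the VEGF and angiopoietin list the receptors and ligands gave no call. Of 12 tested genes, 1 was higher at an unadjusted p below 0.05 (5.03% of all genes), the VEGF co-receptor gene Nrp1. Its difference was 0.31 ± 0.13 (limma adjusted p = 0.369), or -0.02 with the mean of all its probe sets. The median of the list was -0.14. On leaving out luciferase array 3 the median was -0.35, with 0 higher (6.34% of all genes) and 1 lower (7.72% of all). Vegfa, the main ligand of the Kdr receptor, read 698, 749.6 and 594 in the Nfkbiz livers and 817, 935 and 774 in the luciferase livers. The groups did not overlap, as for 1333 of 13312 genes with the Nfkbiz arrays below. The difference was -0.31 ± 0.15 (limma adjusted p = 0.452), but -0.05 with the mean of all probe sets of Vegfa. The lymphatic growth factor gene Vegfd had a difference of -0.43 ± 0.32, which ranged from -0.68 to -0.14 with 1 array left out. Pgf was below the filter.

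Angiocrine and zonated genes had a median difference of 0.04 over 14 genes, or -0.09 without luciferase array 3. Msr1, a scavenger receptor also found on macrophages, differed by 0.55 ± 0.18 (unadjusted p = 0.0106, limma adjusted p = 0.26), the Notch target Hey1 by 0.60 ± 0.28, and Wnt2, a Wnt ligand made by pericentral endothelium, by 0.64 ± 0.38. With 1 array left out the difference of Wnt2 ranged from 0.29, without Nfkbiz array 2, to 1.01, without luciferase array 2. Wnt9b was below the filter. Basement membrane and capillarisation genes had a median of -0.13 over 14 genes. Of these, 0 were past an unadjusted p of 0.05 in either direction, beside 5.03% of all genes higher and 7.0% lower. The type IV collagen gene Col4a2 differed by -0.38 ± 0.21, the nidogen gene Nid1 by -0.46 ± 0.25 and the sialomucin gene Emcn by 0.48 ± 0.35. Emcn was at 0.08 without luciferase array 3, and Nid1 ranged from -0.78, without Nfkbiz array 3, to -0.26, without Nfkbiz array 2. Without luciferase array 3 the median of the list was -0.26. There 3 of the 14 were lower at an unadjusted p below 0.05 (7.72% of all genes), Col4a2 among them (-0.62). Aplnr was below the filter.

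Adhesion molecules had a median of 0.17 over 10 genes, with Icam2 the 1 gene past an unadjusted p of 0.05 (higher, as for 5.03% of all genes). The median was 0.09 without luciferase array 3. Cd47, a broadly expressed surface protein, differed by 0.28 ± 0.13, but by -0.03 with the mean of all its probe sets. Icam1, an NF-κB target on endothelium, differed by 0.23 ± 0.14, or 0.12 without luciferase array 3. Lymphatic markers had a median of -0.00 over 4 genes, with Reln at -0.53 ± 0.22, Prox1 at 0.14 ± 0.21 and Flt4 at -0.12 ± 0.24. With 1 array left out these ranged from -0.72 to -0.33, from -0.04 to 0.37 and from -0.39 to 0.07. Reln is also a stellate cell gene and Prox1 a hepatocyte gene.

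Markers of other liver cells were read beside these results. Of 12 Kupffer cell markers, the macrophages of the sinusoid, which also express Fcgr2b, 10 were higher at an unadjusted p below 0.05 (5.03% of all genes) and the median difference was 0.78, while 0 of the 12 passed after adjustment. Summed intensity was 47706 to 62593 in the Nfkbiz livers and 32465 to 45138 in the luciferase livers, without overlap, and their part in the values of Fcgr2b and Clec4g was not tested. Cd5l, a secreted macrophage protein, differed by 0.83 ± 0.16, C1qa by 0.59 ± 0.15 and the Kupffer lectin gene Clec4f by 1.07 ± 0.28. Their adjusted p-values from limma were 0.092, 0.183 and 0.185. On luciferase array 3, 4 of these 12 had their lowest value. The mean log2 deviation of the 12 was -0.58 there, and -0.72 on luciferase array 1. Without luciferase array 3 the median was 0.73. Over the 10 endothelial genes the median was -0.08 in that same comparison.

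B cell markers, for the other cells that carry Fcgr2b, had a median of 0.25 over 6 genes, with the B cell receptor component gene Cd79b at 1.19 ± 0.36 (unadjusted p = 0.00779, limma adjusted p = 0.238), Cd79a at 0.53 ± 0.51 and Ms4a1 at 0.36 ± 0.36. Ms4a1 was at 0.11 without luciferase array 3, and the median of the list was then also 0.11. Their summed intensity was 527.05 to 845 in the Nfkbiz livers and 421 to 586 in the luciferase livers. Stellate cell and pericyte markers had a median of -0.52 over 10 genes, with 3 lower at an unadjusted p below 0.05 (7.0% of all genes) and 0 after adjustment, Hand2 at -0.68 ± 0.19 and Pdgfrb at -0.60 ± 0.27. Pdgfrb ranged from -0.79 to -0.28 with 1 array left out. Their summed intensity was 13646 to 18048 in the Nfkbiz livers and 15202 to 20357 in the luciferase livers, and 2 of the 10 had their lowest value on luciferase array 3.

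Hepatocyte markers had a median of 0.04 over 10 genes, and on luciferase array 3 none of the 10 had its lowest value (0 of 10). Pck1, a gluconeogenic enzyme gene, differed by -0.47 ± 0.15, or by -0.16 with the mean of all its probe sets, and the fibrinogen genes Fga and Fgb by 0.19 ± 0.14 and 0.15 ± 0.14. Their summed intensity was 362276 to 432352 in the Nfkbiz livers and 360754 to 425764 in the luciferase livers, with luciferase array 3 at 410239. Cholangiocyte markers had a median of -0.64 over 3 genes, Epcam at -0.64 ± 0.25, Krt19 at -0.92 ± 0.50 (from -1.50 to -0.58 with 1 array left out) and Sox9 at 0.05 ± 0.25. Their summed intensity, over 5 genes on the array, was 343 to 656 in the Nfkbiz livers and 437 to 749.8 in the luciferase livers. No tested gene of any list was at 0, and the lowest intensity among them on any array was 32.6.

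**Figure D5:**
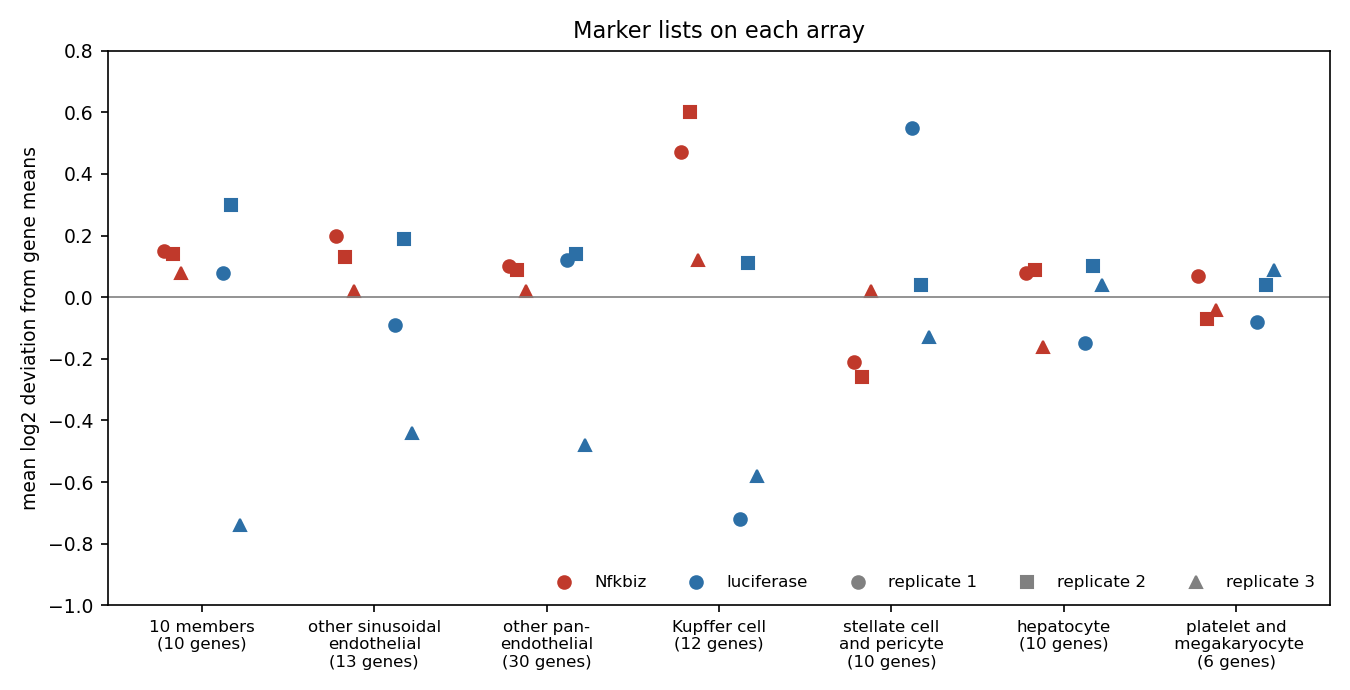
Mean log2 deviation from each gene's mean over the 6 arrays (vertical axis) for 7 marker lists, with Nfkbiz arrays in red left of luciferase arrays in blue and marker shape for the replicate. Luciferase array 3 (blue triangle) is the lowest point of the 10 members and of both other endothelial lists, at -0.74, -0.44 and -0.48, and lies at 0.04 for hepatocyte markers. For Kupffer cell markers it is at -0.58, with luciferase array 1 lower at -0.72.

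The genes whose values across the 6 arrays came closest to the members were found by the root-mean-square difference of log2 values, each taken from the gene's luciferase mean. For Mmrn2 these were Skap1 (0.06), Cirbp (0.16), Tor3a (0.18), Klrk1 (0.18) and Sat1 (0.18), beside a median of 0.81 over all tested genes outside the members. For the mean profile of the 10 genes they were Dcun1d1 (0.07), Yipf4, Xrcc4, Ap5s1 and Tlk2 (0.08 each), beside a median of 0.46.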

How the data were processed

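The members and the gene lists were chosen with earlier results of these data known. Biotin-labelled cRNA from 100 ng of liver RNA was read on 1 Affymetrix array per mouse, 3 per group. The deposited values are linear intensities made by the authors with MAS5, which the submitters' processing notes name without a version. Gene symbols came from GEO's annotation of the platform (34945 with 1 gene, 932 with several, 9160 not named). The intensities were log2-transformed with no pseudocount. The lowest 40% of probe sets by mean log2 intensity were left out, and 27022 probe sets and, by the brightest probe set of each gene, 13312 genes were fitted with limma 3.58.1 in R 4.3.3 (eBayes with an intensity trend), in two-sided tests, Benjamini-Hochberg adjusted, at 0.05. The fit was tested on simulated data. Values of single probe sets come from the probe set fit, those of other genes from the gene fit. The gene fit has its own standard errors and adjusted p. Named genes were all members, up to 3 of each other list by unadjusted p, and the 5 nearest profiles. Ehd3 was named after its values were seen, as was Col4a2 without luciferase array 3. Alternatives covered the filter, normalization, pseudocount, variance prior, array weights, replicate block and each array left out. Gene coordinates were not used, except for the RefSeq promoter windows. Python 3.11.15 and matplotlib 3.10.9 drew the figures.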

Additional observations from a re-analysis of the deposited data

How the results depend on the processing

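With 3 arrays per group, precision is limited by their number. The count of member probe sets past the adjusted threshold was 0 in the planned fit and in every alternative except array weights, where it was 1, Mmrn2. By 1 probe set per gene it was 0, and it was 1, again Mmrn2, with the lowest 60% left out (adjusted p = 0.0386), quantile (0.0318) or cyclic loess normalization (0.0329), median centring (0.0355), log2(intensity + 32) (0.0491) and array weights (0.0297). The adjusted p of Mmrn2 over the genes ranged from 0.0297 to 0.39 over the 16 alternatives, and its difference from 0.57 to 1.18. Member genes higher at an unadjusted p below 0.05 numbered 1 to 4 and those lower 1 to 2 when 1 array was left out. Over all genes in these fits, 495 to 845 were higher and 626 to 1029 lower, of 13279 to 13350 tested. Of the members, 1 was higher without Nfkbiz array 2. Without luciferase array 3, 2 were lower (Stab1 and Vwf), beside 7.72% of all genes. With the lowest 60% left out Vwf was not tested, and 0 members were lower. With 1 array left out the difference ranged from -0.05 to 0.46 for Stab2, -0.18 to 0.32 for Lyve1 1453128_at, -0.26 to 0.57 for Oit3, -0.38 to 0.48 for Kdr, -0.12 to 0.62 for Pecam1 and -0.09 to 0.27 for Mmrn2 1437123_at, each lowest without luciferase array 3. It ranged from -0.00 to 0.52 for Ppbp, -0.04 to 0.37 for Prox1 and -0.39 to 0.07 for Flt4. With array weights Lyve1 1453128_at (-0.09), Oit3 (-0.12), Kdr (-0.16) and Mmrn2 1437123_at (-0.00) turned, and with the mean of all probe sets Nrp1 (-0.02) and Cd47 (-0.03). The cause of these turns was not tested. Over all features, 19 probe sets passed, against 46 with the lowest 60% left out, 35 with log2(intensity + 32), 0 without the trend, 77 with array weights, and 8 to 33 with 1 array left out. Over genes, 30 passed, against 13 with the mean of probe sets, 0 without the trend, 62 with array weights and 8 to 19 with 1 array left out. Same-numbered arrays of the 2 groups had deviations that correlated at -0.0307, 0.0729 and 0.0108. Not every array correlated best with its own number. With 3 arrays per group these values cannot tell whether the replicate numbers pair the arrays. With the replicate number as a block, 0 member probe sets passed, 28 of all probe sets and 27 genes passed, and Mmrn2 had an adjusted p of 0.101 over the genes. In that fit limma's unadjusted p was 0.00191 for Clec4g 1427428_at and 0.00206 for Fcgr2b 1435477_s_at, smaller than in the planned fit. It was 0.015 for Vwf and 0.000734 for Mmrn2 1456768_a_at, larger than in the planned fit.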
